A study of Homo sapiens with 6 samples.

Results

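Aminoacyl-tRNA synthetases attach each amino acid to its tRNA, the step that fixes which amino acid a codon stands for. Human cells keep 1 set of enzymes in the cytosol and another, also encoded in the nucleus, that serves the ribosomes of mitochondria. Many cytosolic synthetase genes are known in mammalian cells as targets of ATF4, the transcription factor that is made when eIF2alpha is phosphorylated during amino acid shortage and other stress. The 35 synthetase genes described here were chosen by name out of 58440 gene identifiers in the deposited count table. Of these, 17 encode cytosolic enzymes, 16 have names ending in 2 and encode mitochondrial enzymes, and GARS1 and KARS1 each encode both forms. The enzymes for aspartate were not analysed here. All 35 genes passed the filter on low counts that left 18380 genes to test.

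The libraries came from K562, an established chronic myeloid leukaemia cell line with the BCR-ABL1 fusion. Cells sequenced in 3 libraries (the IRAIN libraries) over-expressed IRAIN, a long noncoding RNA from the IGF1R locus, and 3 libraries of K562 cells served as controls. The labels call the controls wild type and the columns of the count table call them vector, so they are called controls here. Whether the over-expressing cells were a clone or a pool, and which construct they carried, is not given in the sources used here. No source used here states that replicates were grown as separate cultures, and the p-values therefore measure a spread that may be technical.

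The IRAIN libraries held 11558983 to 13303139 counts in genes, against 11893872 to 12237415 in controls. IRAIN itself had 97, 94 and 106 counts in IRAIN libraries, against 0, 0 and 1 in controls. Levels are given as CPM, counts per 1000000 after scaling of library sizes. All 10 K562 markers examined, among them GATA1 and TAL1, had enough counts to test, and together they summed to 1410.1 to 1455 CPM in IRAIN libraries, against 1557 to 1594 CPM in controls; their part in the results was not tested. Of 7 markers of other blood cells, MS4A1 was at 0 in every library, and the 7 together summed to 8.52 to 10.1 CPM in IRAIN libraries, against 8.18 to 11.6 CPM in controls. Over all genes tested, 20.3% were called higher and 18.9% lower in IRAIN libraries (39.3% in either direction) by edgeR's quasi-likelihood F-test with adjusted p below 0.05, so a call by itself was common.

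Cytosolic synthetase mRNAs were mostly higher in the IRAIN over-expression libraries, and mitochondrial synthetase mRNAs were mostly lower or did not pass the test. Of the 17 cytosolic genes, 11 rose, 3 fell and 3 did not pass. GARS1 rose and KARS1 did not pass. Of the 16 mitochondrial genes, 8 fell, 1 rose and 7 did not pass. The median log2 fold change was 0.25 for the cytosolic genes and -0.17 for the mitochondrial genes, against -0.0010 for all genes tested. In every gene that passed the test, the 3 over-expression libraries lay on 1 side of the 3 controls without overlap. Over all genes tested, 24.3% were higher and 23.2% lower without overlap. In bulk RNA, a change in the share of cells that make a transcript and a change in its level per cell cannot be told apart.

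Calls were more frequent among abundant genes, and 18 of the 19 cytosolic or dual genes had a mean of at least 100 CPM. Among all genes at that level, 32.6% were called higher and 35.2% lower (35.2% and 37.7% by groups not overlapping), whereas 63.2% of the 19 were called higher and 15.8% lower. Of the mitochondrial genes, 2 of 16 reached a mean of 100 CPM. Among all genes below that mean, 18.4% were called higher and 16.4% lower. Of all 16 mitochondrial synthetases, 50% were called lower and 6.25% higher. The 16 include IARS2 and LARS2, the 2 above that mean, which were both called lower. The genes below that mean reach down to the low-count filter, while the 16 had a median of 47.6 CPM in controls. These shares are therefore not matched for level. Summed over the 19 cytosolic or dual genes, the level was 9120, 9168 and 9249 CPM in IRAIN libraries, against 7573, 7569 and 7597 CPM in controls. The sum over the 16 mitochondrial genes was 853, 839.7 and 843 CPM in IRAIN libraries, against 954, 951 and 947 CPM in controls. The sums thus moved in opposite directions, 1.21-fold for the cytosolic and dual genes and 0.889-fold for the mitochondrial genes.

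**Figure D1:**
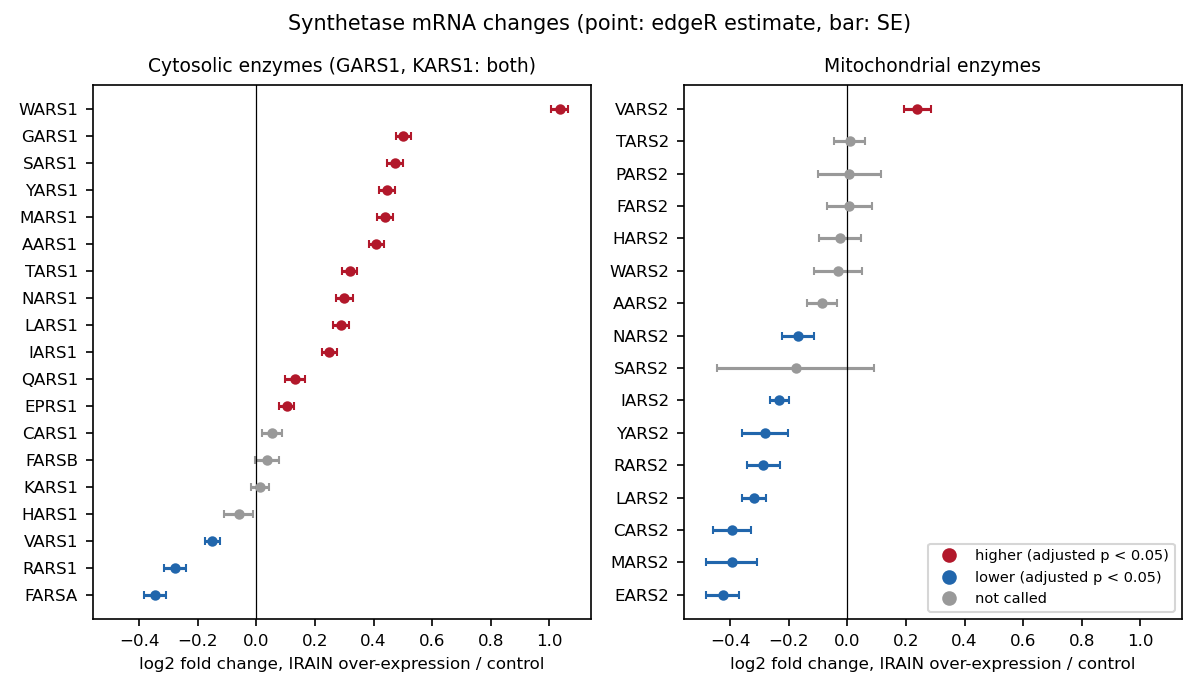
Log2 fold change of each synthetase mRNA (x axis, IRAIN over-expression over control) by gene (y axis), with cytosolic and dual enzymes on the left and mitochondrial enzymes on the right. Points are edgeR estimates and bars their SE, and colour marks genes called higher (12 on the left, 1 on the right), called lower (3 and 8) or not called.

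WARS1, the tryptophan enzyme and also a well-known interferon-induced gene, changed most of the 35. The gene lies on chromosome 14 from 100333788 to 100376805 on the minus strand (GENCODE release 29, GRCh38). Its mRNA stood at 470, 484 and 484 CPM in IRAIN libraries, against 235, 232 and 235 CPM in controls. This 2.05-fold difference had a log2 value of 1.04 ± 0.029 (SE; edgeR adjusted p = 1.1e-38). Of the 35 genes it alone differed by at least 1.5-fold, which 10.3% of all genes tested and 2.35% of those at 100 CPM or more did with a call. Exons of WDR25 and of AL157871.4 overlap 10.6% of the WARS1 exonic bases on the opposite strand. The counts ignored strand and left out reads that fell on several genes. The other risen cytosolic and dual genes rose between 1.07-fold and 1.42-fold.

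GARS1, which makes both the cytosolic and the mitochondrial glycine enzyme, had 692, 692 and 715 CPM in IRAIN libraries, against 500.2, 493 and 489 CPM in controls (log2 fold change 0.50 ± 0.027; edgeR adjusted p = 2.9e-24). It lies on chromosome 7 from 30594681 to 30634033 on the plus strand. SARS1, the serine enzyme, which also supplies the tRNA on which selenocysteine is made, had 456, 461 and 453 CPM in IRAIN libraries, against 332, 327 and 328 CPM in controls (0.47 ± 0.028). Both groups were tight and far apart in these genes. YARS1, the tyrosine enzyme, averaged 711 ± 16 CPM in IRAIN libraries, against 522 ± 7.7 CPM in controls (SD, n = 3 each; log2 fold change 0.45 ± 0.027). AARS1, the alanine enzyme, reached 1053, 1063 and 1039.9 CPM in IRAIN libraries, against 801, 791 and 785 CPM in controls (0.41 ± 0.026). The threonine and asparagine enzymes rose somewhat less. TARS1 had 588, 602 and 584 CPM in IRAIN libraries, against 479, 475 and 469.5 CPM in controls (0.32 ± 0.027). NARS1 had 367, 362 and 366 CPM in IRAIN libraries, against 300.1, 299 and 290.1 CPM in controls (0.30 ± 0.029).

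Mammalian cells hold several cytosolic synthetases in a multi-enzyme complex built on 3 scaffold proteins. Of the 7 complex enzymes in the set, 5 rose, RARS1 fell and KARS1 did not pass the test, and of the 12 outside it 7 rose and 2 fell. MARS1, which charges both initiator and elongator methionine tRNA, had 687, 683 and 715 CPM in IRAIN libraries, against 521, 494 and 521 CPM in controls (log2 fold change 0.44 ± 0.028). Its exons share 12.4% of their bases with opposite-strand genes, DDIT3 among them. LARS1 for leucine averaged 534 ± 7.4 CPM in IRAIN libraries, against 436 ± 4.7 CPM in controls, and IARS1 for isoleucine averaged 1017 ± 26 CPM in IRAIN libraries, against 855 ± 11 CPM in controls (SD, n = 3 each). Their log2 fold changes were 0.29 ± 0.027 and 0.25 ± 0.026. EPRS1, a single protein that charges glutamate and proline tRNAs, had 785, 796 and 803 CPM in IRAIN libraries, against 733, 741 and 746 CPM in controls, a small but non-overlapping difference (0.10 ± 0.026). QARS1 for glutamine spanned 199.9 to 205 CPM in IRAIN libraries, against 179 to 189 CPM in controls, and rose by 0.13 ± 0.033. The QARS1 call was lost when trends of each library with GC content and length were taken out (log2 fold change 0.07, adjusted p = 0.057; 0.00056 to 0.057 over the 12 alternatives). RARS1 for arginine had 123, 132 and 132 CPM in IRAIN libraries, against 151, 157 and 161 CPM in controls (-0.28 ± 0.038; edgeR adjusted p = 8.6e-09). KARS1 for lysine averaged 241 ± 5.7 CPM in IRAIN libraries, against 239 ± 7.2 CPM in controls (SD, n = 3 each), and its ranges overlapped. Of the scaffold genes EEF1E1 rose (0.19 ± 0.07; edgeR adjusted p = 0.023), while AIMP2 (0.16 ± 0.083) and AIMP1 (0.06 ± 0.065) did not pass.

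The remaining cytosolic genes fell or did not pass. FARSA, the catalytic subunit of the phenylalanine enzyme, had 127, 137 and 122 CPM in IRAIN libraries, against 160, 171 and 160 CPM in controls (-0.35 ± 0.039; edgeR adjusted p = 2.5e-11). Its partner subunit FARSB had 117, 131 and 127 CPM in IRAIN libraries, against 117, 125 and 124 CPM in controls, with overlapping ranges (0.04 ± 0.04; edgeR adjusted p = 0.52). FARSA thus fell while FARSB did not pass, and the difference between these subunits of 1 enzyme was not tested. VARS1, the valine enzyme, which associates with elongation factor 1, had 692, 677 and 686 CPM in IRAIN libraries, against 737, 772 and 771 CPM in controls. It fell by 0.15 ± 0.027 on the log2 scale and by 0.24 after the GC and length correction. CARS1 for cysteine (0.05 ± 0.034, edgeR adjusted p = 0.22) and HARS1 for histidine (-0.06 ± 0.05, edgeR adjusted p = 0.36) did not pass. CARS1 passed without over-expression replicate 3 (0.09, edgeR adjusted p = 0.038; 0.038 to 0.55 over the 12 alternatives), and its sign turned after the GC and length correction (-0.04).

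**Figure D2:**
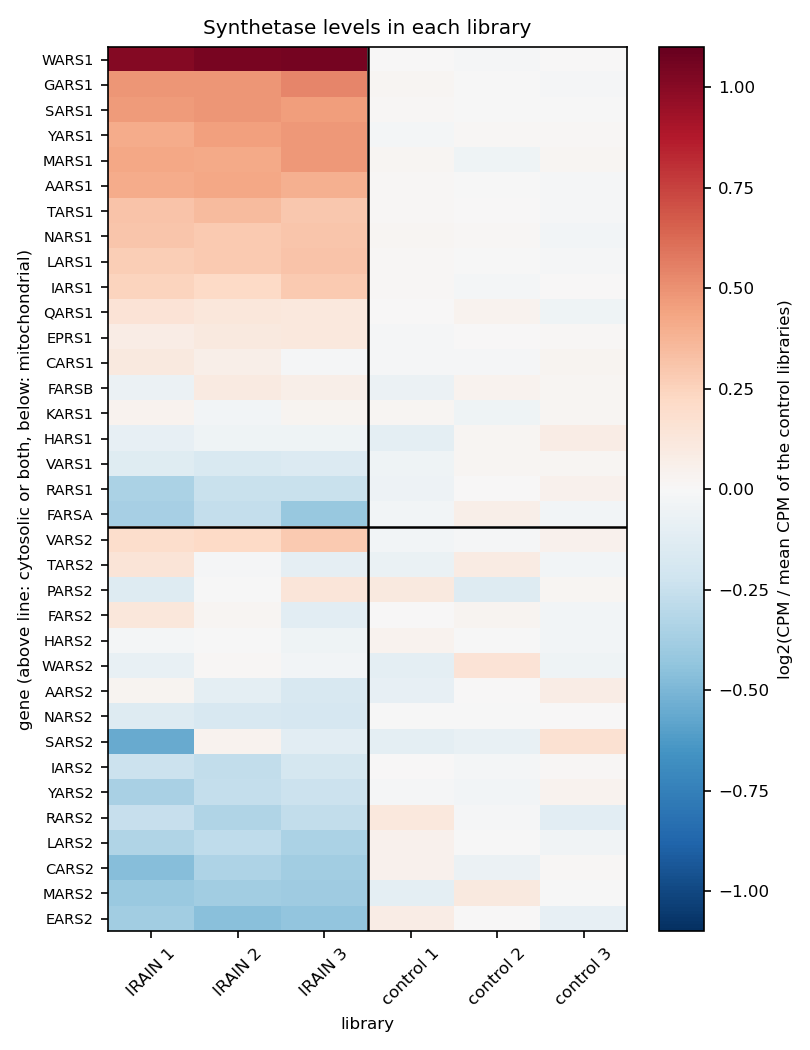
Level of each synthetase mRNA in each library, as log2 of its CPM over the mean CPM of the control libraries (colour), with 3 over-expression libraries left of 3 controls. Cytosolic and dual genes above the line are mostly red in all 3 over-expression libraries, and mitochondrial genes below it mostly blue or pale.

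Of the 19 cytosolic or dual genes, 13 were listed as ATF4-responsive in mammalian cells. The list came from general knowledge and was made with earlier results of these data known, so the split is a description and not a test. All 13 had a mean of at least 100 CPM, where 32.6% of all genes were called higher and 35.2% lower. Of those 13, 11 rose, VARS1 fell and CARS1 did not pass (median log2 fold change 0.32). Of the other 6, QARS1 rose, FARSA and RARS1 fell, and FARSB, HARS1 and KARS1 did not pass (median -0.02). The 2 structural classes of synthetase gave similar counts in the cytosol, with 6 of 9 class I and 5 of 9 class II genes higher, EPRS1 belonging to both. ATF4 mRNA itself averaged 412 ± 3.5 CPM in IRAIN libraries, against 357 ± 1.7 CPM in controls (SD, n = 3 each; log2 fold change 0.21 ± 0.028; edgeR adjusted p = 7.3e-09).

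ATF4 is known to bind with C/EBP partners to a composite element, written here as TGATGNAA on either strand (TTNCATCA as its reverse complement). RefSeq promoter windows on GRCh38.p14, from 250 bases before to 50 after each annotated start, were at hand for 30 of the 35 genes. They were not matched for LARS1, VARS1, YARS1, AARS2 and VARS2. The element was found in 7 of 16 cytosolic or dual genes (43.8%) and in 1 of 14 mitochondrial genes (7.14%). Among all 27305 genes with such windows 4.46% held it, and among the 11113 genes with windows that were also tested 2.70%. The 8 matches are shown because they mark which genes carry the element near the start. Each line gives 30 bases on the gene's own strand, 5′ to 3′, with the matching letters in capitals.
AARS1, chr16:70289675-70289704, minus strand: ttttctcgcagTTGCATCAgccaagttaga
CARS1, chr11:3057407-3057436, minus strand: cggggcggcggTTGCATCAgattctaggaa
GARS1, chr7:30594834-30594863, plus strand: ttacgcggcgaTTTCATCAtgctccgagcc
IARS1, chr9:92293692-92293721, minus strand: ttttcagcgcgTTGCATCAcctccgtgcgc
MARS1, chr12:57488053-57488082, plus strand: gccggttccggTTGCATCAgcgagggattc
NARS1, chr18:57621804-57621833, minus strand: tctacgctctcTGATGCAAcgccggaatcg
TARS1, chr5:33440956-33440985, plus strand: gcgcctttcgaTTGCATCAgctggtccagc
YARS2, chr12:32756076-32756105, minus strand: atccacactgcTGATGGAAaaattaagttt

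In 6 of the 7 cytosolic or dual genes the same 8 letters occurred, TTGCATCA or their reverse complement, and GARS1 differed at the base that the pattern leaves free. Of these 7, 6 rose and CARS1 did not pass, while YARS2, the mitochondrial gene with a match, fell. Of the 9 cytosolic or dual genes with windows and no match, 4 rose, 2 fell and 3 did not pass. WARS1, SARS1, EPRS1 and QARS1 thus rose with no match in their windows. A match describes the sequence and does not show a bound site. Binding of ATF4 was not measured.

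Mitochondrial synthetases charge the tRNAs encoded on mitochondrial DNA. EARS2, which charges glutamate tRNA and also loads glutamate on glutamine tRNA for later conversion, had 45.4, 43.2 and 44 CPM in IRAIN libraries, against 63, 59.4 and 55.7 CPM in controls. Its log2 fold change was -0.43 ± 0.056 (edgeR adjusted p = 3.3e-09). MARS2, whose methionyl-tRNA is formylated for initiation in mitochondria, had 16.4, 16.7 and 16.6 CPM in IRAIN libraries, against 20.3, 23.5 and 21.7 CPM in controls (-0.39 ± 0.087). CARS2 for cysteine averaged 30.3 ± 1.3 CPM in IRAIN libraries, against 39.9 ± 1.5 CPM in controls (SD, n = 3 each; -0.39 ± 0.066). In these genes the highest over-expression library stayed below the lowest control. LARS2 for leucine had 93.9, 97 and 92.6 CPM in IRAIN libraries, against 121, 117 and 115 CPM in controls (-0.32 ± 0.041). IARS2 for isoleucine had 229, 224 and 237 CPM in IRAIN libraries, against 271, 267 and 273 CPM in controls (-0.23 ± 0.031). RARS2 for arginine (-0.29 ± 0.056), YARS2 for tyrosine (-0.28 ± 0.08) and NARS2 for asparagine (-0.17 ± 0.054) fell as well, each without overlap. The smallest of these falls was in NARS2, with 48.5 to 50.2 CPM in IRAIN libraries, against 55.1 to 55.5 CPM in controls. By structural class, 7 of 9 mitochondrial class I genes fell and 1 rose, and 1 of 7 class II genes fell and none rose. The class I genes had a median of 57.7 CPM in controls and the class II genes 28.6 CPM, so these counts are not matched for level. Among all genes below a mean of 100 CPM, 18.4% were called higher and 16.4% lower. Whether the classes differ was not tested.

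VARS2 for valine was the mitochondrial gene that rose, with 83.8, 85.4 and 89.5 CPM in IRAIN libraries, against 71.7, 72.3 and 75.4 CPM in controls (0.24 ± 0.045; edgeR adjusted p = 1.4e-05). The value dropped to 0.14 after the GC and length correction, and 22% of its exonic bases are shared with GTF2H4 on the same strand. FARS2, HARS2, PARS2, TARS2, WARS2, AARS2 and SARS2 had overlapping ranges and did not pass. TARS2, for instance, spanned 63.4 to 75 CPM in IRAIN libraries, against 64.9 to 72.7 CPM in controls. AARS2 passed at -0.14 without over-expression replicate 1 (edgeR adjusted p = 0.047) and at -0.16 after the GC and length correction (edgeR adjusted p = 0.0068; 0.0068 to 0.64 over the 12 alternatives). SARS2 had 1.41, 2.12 and 1.9 CPM in IRAIN libraries, against 1.92, 1.94 and 2.32 CPM in controls. Another annotated gene on the same strand covers 46.2% of its exonic bases and MRPS12 covers 10.8% on the other strand, so its level is uncertain. The share of counts from mitochondrial DNA was 2.95% to 3.33% in IRAIN libraries, against 2.46% to 2.78% in controls, and that of the nuclear RNA MALAT1 2.57% to 2.62% and 1.94% to 1.99% in the same order. The part of these shifts in the synthetase results was not tested.

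The cytosolic and mitochondrial enzymes for the same amino acid were then set against each other within each library. Over 17 pairs, 14 had the larger log2 fold change in the cytosolic gene. In 11 of them the cytosolic to mitochondrial CPM ratio was higher in every over-expression library than in any control, and in 2 of the other pairs it was lower in every over-expression library. For each of these 13 a two-sided exact permutation test gave p = 0.1, the smallest that 3 against 3 libraries allow (0.131 after Benjamini-Hochberg adjustment over the 17 pairs), so no pair could pass 0.05. The share of gene pairs in general with such a ratio was not computed. Of all single genes tested, 24.3% were higher and 23.2% lower without overlap (35.2% and 37.7% at 100 CPM or more). The pairs reuse the levels of the single genes, with FARS2 and EPRS1 each in 2 pairs. The MARS1 to MARS2 ratio was 41.8, 40.8 and 42.9 in IRAIN libraries, against 25.7, 21 and 24 in controls, a difference in log2 fold change of 0.83 ± 0.091 (SE). The WARS1 to WARS2 ratio was 21.7, 20.9 and 21.7 in IRAIN libraries, against 11.1, 9.17 and 10.6 in controls (1.07 ± 0.087). The ratios of YARS1 to YARS2 (0.73 ± 0.084) and LARS1 to LARS2 (0.61 ± 0.049) rose in the same way, and in the LARS, IARS, MARS, NARS and YARS pairs and for EPRS1 with EARS2 the cytosolic gene was called higher and the mitochondrial gene lower.

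The valine pair ran the other way. The VARS1 to VARS2 ratio was 8.25, 7.94 and 7.67 in IRAIN libraries, against 10.3, 10.7 and 10.2 in controls (-0.39 ± 0.053). FARSA over FARS2 was also lower (-0.35 ± 0.085). The arginine pair was lower in both compartments, and its ratio overlapped between groups at 2.55, 2.87 and 2.76 in IRAIN libraries, against 2.41, 2.74 and 3.02 in controls. HARS1 and HARS2 lie head to head on chromosome 5 with overlapping 5′ ends, their RefSeq starts 115 bases apart, and neither passed the test. Opposite-strand genes share 8.38% of the HARS1 exonic bases and 11.7% of those of HARS2, in counts that ignore strand.

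**Figure D3:**
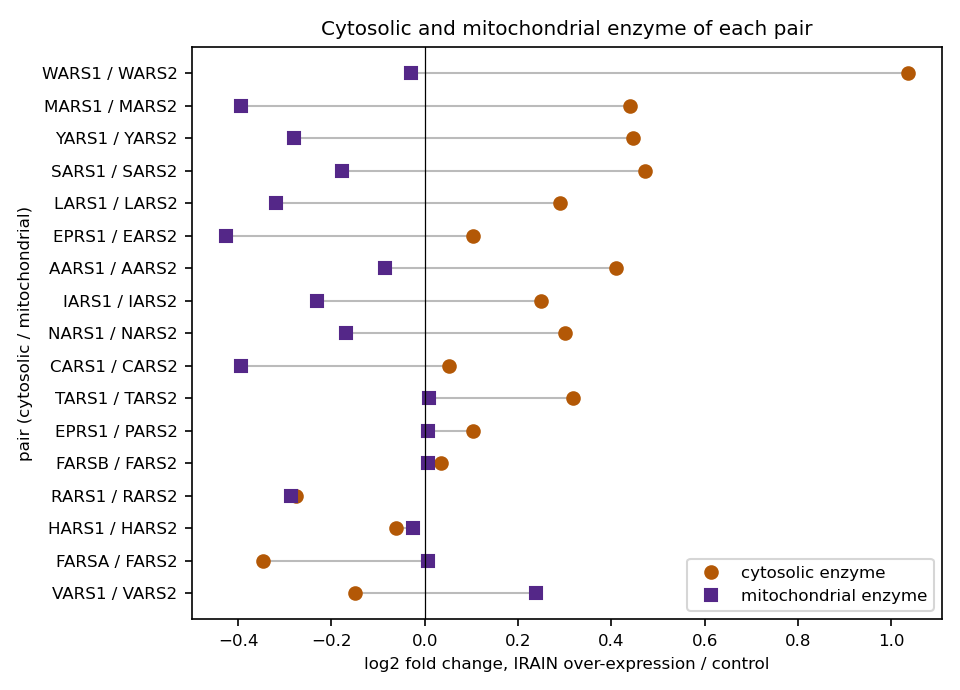
Log2 fold change (x axis, IRAIN over-expression over control) of the cytosolic gene (circles) and the mitochondrial gene (squares) of 17 pairs (y axis), with FARS2 and EPRS1 each used in 2 pairs. Circles lie right of squares in 14 pairs, and the VARS, FARSA and HARS pairs are the exceptions.

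Genes that lie close together did not always move together. On chromosome 1 (GENCODE release 29, GRCh38), EPRS1 (219968601 to 220046658, minus strand) ends 47444 bases before IARS2 begins (220094102 to 220148041, plus strand), and EPRS1 rose while IARS2 fell. The 14 other tested genes within 1 Mb of each had a median log2 fold change of 0.16. Over the 35 genes, such medians of neighbours ranged from -0.35 around CARS1 (26 genes) to 0.44 around NARS1 (6 genes). For NARS1 the neighbours' median was above its own value of 0.30, for MARS1 it was 0.23 (50 genes), and for GARS1 0.20 (22 genes). WARS1, with a neighbours' median of -0.02 (15 genes), stood far above that median, and YARS2 fell where its 15 neighbours had a median of 0.23. Of the 24 called members, 15 had the sign of their neighbours' median. Copy number was not measured, and its part in these values was not tested.

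Levels between genes were compared per length, as CPM per kb of exon that no other annotated gene shares. This length joins the exons of all annotated isoforms of a gene, so the ranks of genes depend in part on the annotation. AARS1 was the most abundant of the set, at 234 ± 2.6 CPM per kb in IRAIN libraries, against 176 ± 1.8 CPM per kb in controls (SD, n = 3 each). In the controls EPRS1 followed at 136 ± 1.2, then VARS1 at 125 ± 3.2 and GARS1 at 122 ± 1.4 CPM per kb, and the last 2 differed by less than the SD of VARS1. With IRAIN over-expressed, GARS1 at 173 ± 3.3 CPM per kb stood above EPRS1 at 146 ± 1.7. VARS1 at 113 ± 1.2 stood below IARS1 and SARS1. MARS1, at 114 ± 2.8 CPM per kb, differed from VARS1 by less than the SD of MARS1. WARS1 stood at 84.3 ± 1.4 CPM per kb in IRAIN libraries, against 41.1 ± 0.31 in controls. The median over genes in controls was 67.9 CPM per kb for the 19 cytosolic or dual genes and 11.1 for the 16 mitochondrial genes. IARS2, at 55.2 ± 1.5 CPM per kb in IRAIN libraries, against 64.8 ± 0.74 in controls, was the most abundant mitochondrial gene in both groups and stood above 8 of the 19 in controls. HARS1, at 9.07 ± 0.16 CPM per kb in IRAIN libraries, against 9.46 ± 0.64 in controls, was the lowest cytosolic gene by this measure, and in controls it differed from HARS2 (9.09 ± 0.23) by less than its own SD. That closeness rests on the lengths used, 7195 bases for HARS1 and 3147 for HARS2. Before division by length, controls had 68.1 CPM for HARS1 and 28.6 CPM for HARS2.

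**Figure D4:**
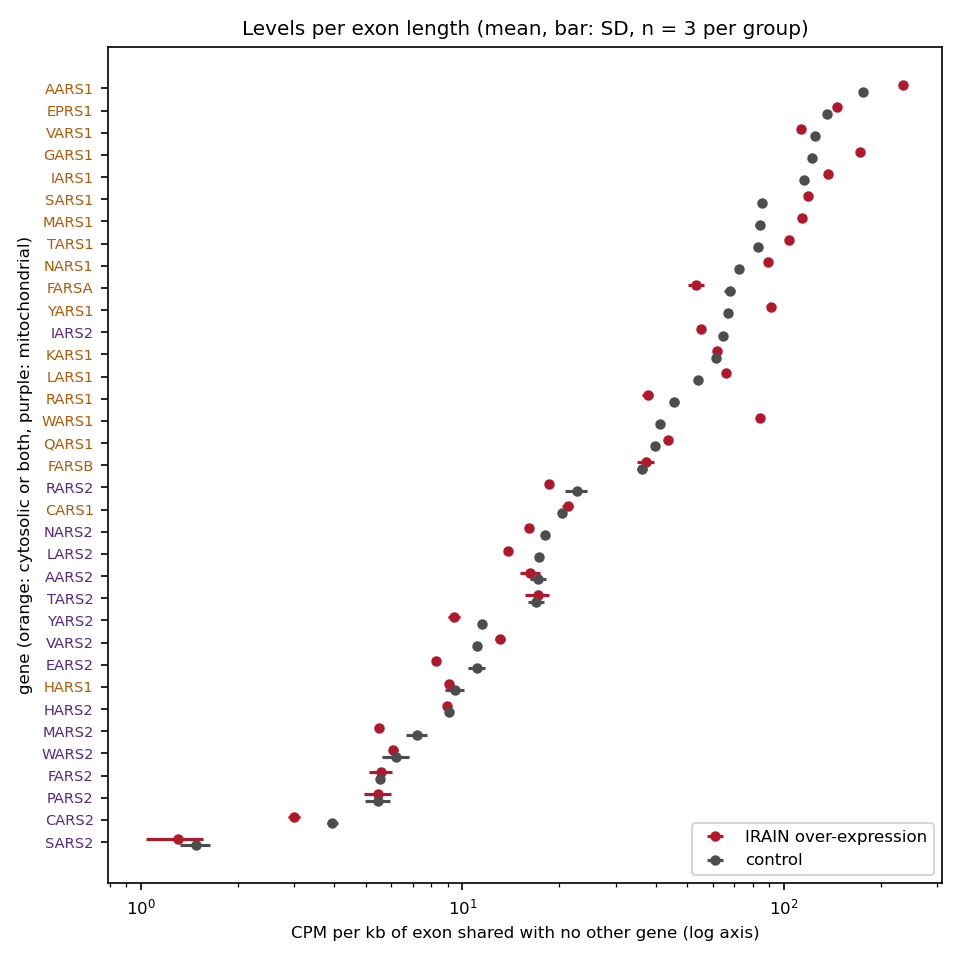
Level of each synthetase mRNA per length (x axis, CPM per kb of exon shared with no other gene, log axis) by gene (y axis, ordered by the control mean), with mean and SD of 3 over-expression libraries (red) and 3 controls (grey). AARS1 is at the top and SARS2, most of whose exons are shared with other genes, at the bottom.

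Other genes around tRNA charging were counted in the same way. Of all genes tested, 20.3% were called higher and 18.9% lower, and of those at 100 CPM or more 32.6% and 35.2%. The counts are to be read against these shares. Of 23 further ATF4 targets that are not synthetases, 19 rose and none fell (median log2 fold change 0.35). This list was chosen with earlier results of these data known, so its count is a description and not a test. PHGDH, the first enzyme of serine synthesis (1.07 ± 0.039), and the pseudokinase TRIB3 (0.71 ± 0.034) had the smallest p-values of the list. NUPR1, a stress-induced chromatin protein named after its value was seen, had the largest log2 fold change (2.22 ± 0.23). Its level was low, at 6.04 ± 0.22 CPM in IRAIN libraries, against 1.3 ± 0.59 CPM in controls (SD, n = 3 each). ASNS, the asparagine synthetase and a well-known ATF4 target, averaged 29.1 ± 1 CPM in IRAIN libraries, against 28.4 ± 0.98 CPM in controls (SD, n = 3 each; edgeR adjusted p = 0.75). Promoter windows were at hand for 17 of these genes, and 5 held the element (29.4%). Among sensors of uncharged tRNA and eIF2alpha control, 3 of 9 rose and 2 fell, with a median log2 fold change of 0.03. The heme-regulated kinase EIF2AK1 rose by 0.35 ± 0.031 and PPP1R15A, which directs dephosphorylation of eIF2alpha, by 0.42 ± 0.037. The kinase that senses uncharged tRNA, EIF2AK4, did not pass (-0.04 ± 0.037, edgeR adjusted p = 0.4), and its partner GCN1 fell by 0.19 ± 0.026.

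Of the cytosolic elongation factors, which carry charged tRNA to the ribosome or move it along, 4 of 5 tested rose and none fell (median log2 fold change 0.13). By p, EEF2 (0.23 ± 0.024) and EEF1A1 (0.13 ± 0.023) came first. Of 13 genes of mitochondrial transamidation, formylation and translation, 2 rose and 4 fell (median log2 fold change -0.10). MRRF, the ribosome recycling factor (-0.38 ± 0.051), and the elongation factor GFM1 (-0.20 ± 0.042) fell, and MTIF2 (0.23 ± 0.039) and TUFM (0.13 ± 0.031) rose. Of the amidotransferase genes that finish glutamine tRNA behind EARS2, GATC fell (-0.24 ± 0.073), and QRSL1 (0.03 ± 0.063) and GATB (-0.05 ± 0.1) did not pass, nor did the formylase MTFMT (-0.10 ± 0.095). Of 11 genes of tRNA maturation and export, 2 rose and 5 fell (median log2 fold change -0.24). The nuclear export receptor XPOT rose by 0.18 ± 0.027 and the splicing endonuclease subunit TSEN15 by 0.33 ± 0.032, while ELAC2, which trims tRNA 3′ ends, and TRNT1, which adds the CCA end, changed by -0.43 ± 0.042 and -0.40 ± 0.061. Of 20 genes of RNA polymerase III and its factors, which transcribe tRNA genes, 2 rose and 6 fell (median log2 fold change -0.03). The subunit POLR3D rose (0.19 ± 0.044), GTF3C4 of the factor TFIIIC fell (-0.33 ± 0.044), and MAF1, a repressor of the polymerase, rose by 0.23 ± 0.053. Of 3 genes that remove mischarged amino acids, AARSD1 fell (-0.66 ± 0.19), and neither gene of selenocysteine charging passed. AARSD1 was low, with a mean of 3.1 CPM in IRAIN libraries, against 4.95 CPM in controls. No share in any of these lists, the other ATF4 targets and the elongation factors included, was tested against the share over all genes. Most of the lists hold few genes. The tRNAs themselves were not measured here.

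**Figure D5:**
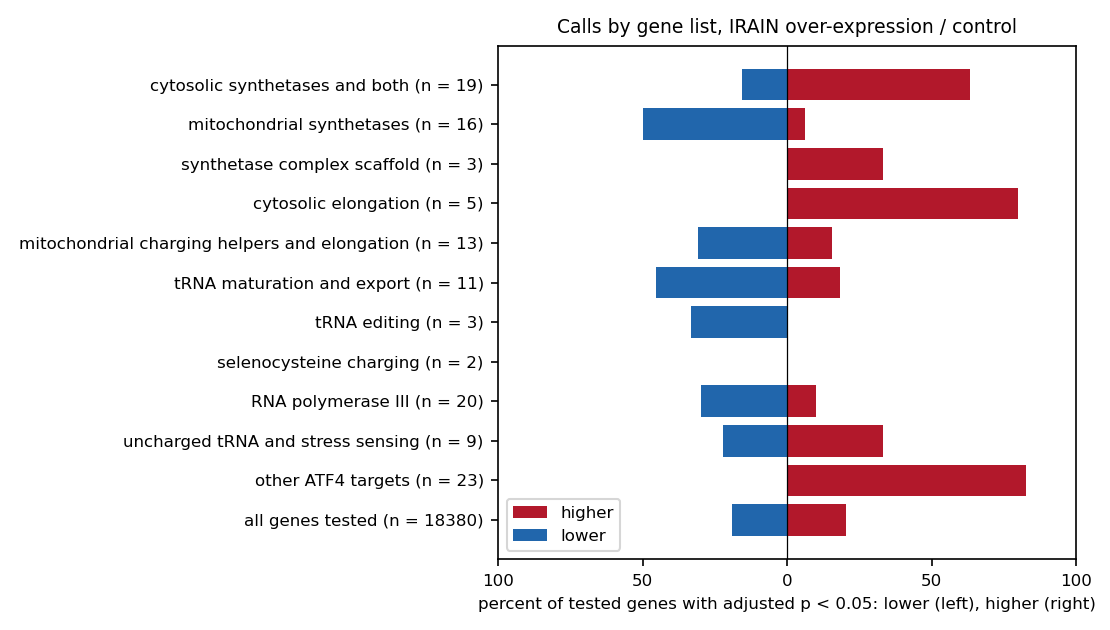
Share of tested genes in each list called lower (bars to the left) or higher (bars to the right) in IRAIN over-expression over control libraries, in percent (x axis), with the number tested beside each list (y axis). The 19 cytosolic or dual synthetases and the 23 other ATF4 targets lean to higher, the 16 mitochondrial synthetases to lower, and all 18380 genes tested are nearly even.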

How the data were processed

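The authors deposited raw counts per gene for the 6 libraries, whole numbers with no normalization. The submitters' processing notes name STAR and hg38 (GRCh38), with no version, and say nothing used here of the gene annotation. The table's control columns are numbered but match no single sample's label, and serve as the control group. A second deposited count table has no header or sample name and follows the layout of STAR's gene counts. Its strand-ignored column matches over-expression replicate 2 at each of the 58440 identifiers, so the deposited counts ignore strand; 2 further columns were not used. In that library 4.96% of reads fell on several genes, 6.68% mapped to several places, 29.9% lay in no gene and 23.7% were unmapped, and none of these was counted. Of the 35 genes, 19 share exonic bases with another gene.

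Counts were tested with edgeR 4.0.16 in R 4.3.3 (quasi-likelihood F-test, two-sided, TMM scaling, filterByExpr, Benjamini-Hochberg adjustment over all 18380 genes at 0.05). The SE of a log2 fold change is its size over the square root of F. Library pairs within a group differed by more than sampling noise (chi-square per degree of freedom 1.36 to 2.31). The edgeR step was tested on simulated data. Synthetase counts ran from 16 to 13751 per library, and precision is lowest for SARS2. Gene symbols were matched by Ensembl identifier, and exon lengths and positions come from GENCODE release 29. Alternatives were RLE scaling, no filter, DESeq2 1.42.0, limma-voom 3.58.1, leaving out each library, a replicate block, and per-library smooth trends in GC content and exon length taken out as offsets (mgcv 1.9.3). The text names all 35 genes, IRAIN, and from each list the called genes of smallest p (at most 2 per direction), with ATF4, the scaffold, GCN2 pathway and transamidation genes in any case; ASNS and some others were named after their values were seen. A gene that this rule selects is not reported here. The genes, lists and rule were chosen with earlier results of these data known.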

Additional observations from a re-analysis of the deposited data

How the results depend on the processing

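Of 420 comparisons of a single synthetase under 12 alternatives, 402 kept direction and side of the threshold. The counts of called cytosolic genes stayed at 10 to 12 higher and 3 lower, and of mitochondrial genes at 1 higher and 8 to 9 lower. With the GC and length offset the median log2 fold change was 0.2283 for cytosolic and -0.2051 for mitochondrial genes. Leaving out each library gave -0.1984 to -0.1255 for the mitochondrial median. The sign turned in genes that had not passed the test, with the GC and length offset in CARS1 (-0.0364), KARS1 (-0.0026), FARS2 (-0.0420), PARS2 (-0.0448) and TARS2 (-0.0488). Leaving out each library in turn gave values on both sides of 0 for FARS2 (-0.0465 to 0.0730), TARS2 (-0.0538 to 0.0661), PARS2 (-0.0635 to 0.0732), KARS1 (-0.0126 to 0.0327) and WARS2 (-0.0825 to 0.0492). The cause was not tested. DESeq2 called 5265 genes in all, against 7217 by edgeR, and calls of all 35 synthetases were the same. Scaling by RLE moved the median of all genes by -0.0023. With the column numbers as a replicate block, 7077 genes were called and no synthetase call changed. Deviations of same-numbered libraries from their group means had r = -0.0423, -0.00568 and -0.0134 across genes. These values weigh genes of low counts like the rest, and whether a number marks a shared culture or day cannot be told from them. Depth limits SARS2, MARS2 and PARS2 most.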
